A study of Mus musculus with 59 samples.

Results

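The effect of a cachexia-inducing melanoma on gene expression was compared between the diaphragm and the soleus. The comparison used 29 of the 59 RNA-seq libraries of the series, chosen by muscle, tumor and treatment. It asked whether the change from non-cachectic to cachectic tumor-bearing mice had the same size in both muscles. All mice were female NCI Ath/nude, an athymic strain without mature T cells, were 4 months old and carried a patient-derived melanoma xenograft in the flank. The 4 groups were diaphragm of mock-treated mice with the cachectic melanoma (n = 10), diaphragm of mock-treated mice with the non-cachectic melanoma (n = 9), soleus with the cachectic melanoma (n = 5) and soleus with the non-cachectic melanoma (n = 5). Mock treatment was intraperitoneal injection of PBS with albumin, and the labels give no injection for the soleus mice. Each kind of melanoma was 1 xenograft, so cachexia and the identity of the tumor cannot be told apart. Per the study's methods the diaphragm was dissected free of tendon, whereas the dissection of the soleus is not given in the sources used here.

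Cachexia is the loss of muscle that accompanies some cancers. Atrophying fibers degrade sarcomeric protein through ubiquitin ligases and the proteasome, and circulating glucocorticoids and inflammatory cytokines such as interleukin-6 are known drivers. The diaphragm is a thin sheet of mixed fibers that contracts with every breath and is lined by mesothelium. The soleus is a small postural muscle of the calf that is rich in slow fibers and joins the Achilles tendon. Force passes from sarcomeres through the myotendinous junction to a matrix built mainly of type I collagen, and muscle fibers respond to altered load with a set of sarcomere-associated genes that includes Ankrd1 and Csrp3.

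Muscle and position markers were checked against the labels. Hoxc10, a homeobox gene of the hindlimb, was at most 0.0511 TPM (transcript abundance per library, scaled to a common total) in any diaphragm library and at least 46.3 TPM in every soleus library. Summed over 5 mesothelial markers, the level was between 60.2 and 249.3 TPM in diaphragm and at most 1.78 TPM in soleus. Myh7, the slow myosin heavy chain, had a median of 461.2 and 347.2 TPM in cachectic and non-cachectic diaphragm, against 6029 and 5166 TPM in cachectic and non-cachectic soleus. Some libraries stood apart. In 1 cachectic soleus library Myh4, the fast IIb myosin, was at 4989 TPM, while the other 9 soleus libraries lay between 7.34 and 69.8 TPM. Summed liver markers reached 9462 TPM in 1 non-cachectic diaphragm library, where the median was 26.9 TPM, and 2216 TPM in 1 cachectic one, where it was 36.2 TPM. A further split was marked by the pseudogene Pcna-ps2, which reached 1 TPM in 9 of 10 cachectic and 3 of 9 non-cachectic diaphragms, in 5 of 5 cachectic soleus libraries and in 0 of 5 non-cachectic ones. In the soleus this split and the melanoma cannot be told apart. Split-matched values come from a fit with the 9 cachectic and 6 non-cachectic diaphragm libraries that follow the soleus split. The number of genes above 0 ranged from 17514 to 19160 per library. TPM keeps no record of depth, so no counting error is given.

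On the log2(TPM + 1) scale, the melanoma effect is the mean of the cachectic minus that of the non-cachectic libraries of a muscle. The difference described here is the diaphragm effect minus the soleus effect. Of 13401 genes tested, 339 were called, that is, had a limma adjusted p under 0.05 for this difference. For 256 of them the difference was above 0 (1.91% of genes tested), and for 83 it was below 0 (0.619%). At an unadjusted p under 0.05 there were 2277 genes. Of the called genes, 8 reached 1 TPM in libraries of 1 group only, as did 42 of all genes tested. That count leaves out called genes that reached 1 TPM in both soleus groups but in no diaphragm library, such as Igfn1 and Hoxc11. Calls of this kind reflect the soleus effect, and their number was not counted. Without the soleus library high in Myh4, 210 genes were called (143 above 0 and 67 below 0), and 6 of the 24 genes named for the size of their difference lost their call, namely Actc1, Dusp18, Col1a1, Folr2, F13a1 and Tmem119. Leaving out 1 of the non-cachectic soleus libraries called 190 to 286 genes, and without the non-cachectic diaphragm library high in liver markers 306 were called. Leaving out 1 of the cachectic diaphragm libraries called 266 to 498. Within the diaphragm, 6095 genes were higher with the cachectic melanoma (45.5%) and 505 lower (3.77%). Within the soleus, 2355 were higher (17.6%) and 1036 lower (7.73%). These shares depend on the setting. The 6600 diaphragm calls became 3534 under median-ratio scaling, 3467 without mitochondrial transcripts and 2366 with the Pcna-ps2 split as a term, which took the 3391 soleus calls to 470. The diaphragm had 19 libraries and the soleus 10, so the counts of the 2 muscles are not comparable in size of effect.

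The balance of the calls depends on the scaling. Median-ratio scaling of the libraries called 426 genes, of which 132 were above 0 and 294 below 0 (31% above 0, against 75.5% as deposited). The same 214 genes were called with the same sign by both. The median melanoma effect over all genes was 0.20 in diaphragm and 0.08 in soleus as deposited, and 0.00 and 0.02 after scaling. The median difference moved from 0.12 to -0.02. Mitochondrially encoded transcripts took 38.1% ± 3.18 (SD, n = 10) of all TPM in cachectic and 47.5% ± 2.97 (n = 9) in non-cachectic diaphragm. In soleus they took 30.5% ± 3.92 (n = 5) and 41.1% ± 2.00 (n = 5), and their part in the results was tested by leaving them out, which called 396 genes, 289 above 0 and 107 below 0 (73% above 0). The 24 genes named for the size of their difference, the 12 highest and 12 lowest among called genes with a mean of at least 5 TPM, kept their sign and their call under median-ratio scaling.

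The called genes were divided by the calls within each muscle. Of the 256 genes above 0, 138 were lower with the cachectic melanoma in the soleus and not called in the diaphragm, 70 were higher in the diaphragm alone, 31 were higher in the diaphragm and lower in the soleus, and 17 were lower in both. Of the 83 genes below 0, 49 were higher in the soleus alone, 21 were higher in both, 7 were lower in the diaphragm alone and 6 were lower in the diaphragm and higher in the soleus. These classes repeat the single-muscle calls and are not a further test. Across the genes tested the 2 effects correlated (Pearson r = 0.663, Spearman rho = 0.634), a description over genes, which are not independent and share libraries.

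**Figure D1:**
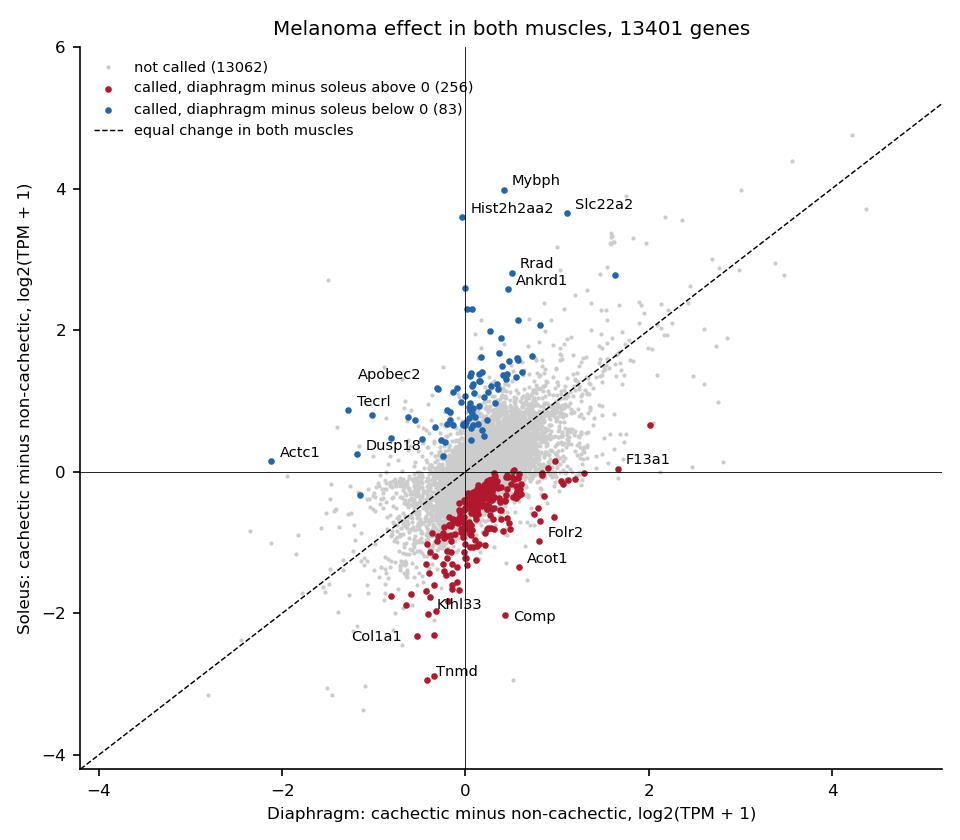
Melanoma effect on the log2(TPM + 1) scale in diaphragm (horizontal axis) and soleus (vertical axis), 1 point per gene for 13401 genes, with the 256 and 83 called genes in red and blue. Points on the dashed line changed equally in both muscles, and Mybph (0.42 in diaphragm, 3.99 in soleus) and Tnmd (-0.41 and -2.95) lie far from it.

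Promoter stretches are shown for 4 of these 24 genes, 2 on each side, to let the reader see the regulatory sequence of muscle genes that moved apart in the 2 muscles. Promoters of 16 of the 24 genes were matched by symbol to RefSeq starts (GRCm38.p6). The 4 shown are those that overlap no annotated exon and hold a CArG, MEF2 or M-CAT motif, the binding motifs of serum response factor, MEF2 and TEAD factors. Each stretch is the 250 bases before the start, 5′ to 3′ on the gene's strand. Capitals mark matches on either strand to the M-CAT motif CATTCC, to the E-box CAGCTG, to the letters TATAAA, or to the motifs of serum response factor and MEF2.
Mybph, chr1:134193198-134193447, plus strand: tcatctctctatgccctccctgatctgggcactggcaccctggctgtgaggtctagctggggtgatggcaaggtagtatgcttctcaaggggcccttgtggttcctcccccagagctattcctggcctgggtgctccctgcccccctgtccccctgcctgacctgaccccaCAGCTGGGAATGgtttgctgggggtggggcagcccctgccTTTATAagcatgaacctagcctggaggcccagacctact
Fhl2, chr1:43163962-43164211, minus strand: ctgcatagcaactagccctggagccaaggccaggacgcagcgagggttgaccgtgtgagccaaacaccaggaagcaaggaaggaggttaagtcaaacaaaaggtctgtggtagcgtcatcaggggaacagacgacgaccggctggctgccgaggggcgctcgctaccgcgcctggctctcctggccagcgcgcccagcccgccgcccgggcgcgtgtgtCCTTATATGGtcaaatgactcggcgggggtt
Dupd1, chr14:21714577-21714826, minus strand: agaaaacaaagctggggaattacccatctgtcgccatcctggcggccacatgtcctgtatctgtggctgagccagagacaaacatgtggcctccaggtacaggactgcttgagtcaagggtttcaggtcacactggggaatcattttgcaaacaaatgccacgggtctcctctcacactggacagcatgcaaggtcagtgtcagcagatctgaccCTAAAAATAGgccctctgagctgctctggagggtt
Klhl33, chr14:50895353-50895602, minus strand: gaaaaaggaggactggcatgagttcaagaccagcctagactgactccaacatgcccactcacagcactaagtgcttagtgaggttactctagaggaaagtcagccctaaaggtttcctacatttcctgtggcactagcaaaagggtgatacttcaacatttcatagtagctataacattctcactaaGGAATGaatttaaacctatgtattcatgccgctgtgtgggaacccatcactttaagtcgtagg
In Mybph an E-box and an M-CAT match adjoin, starting 79 and 73 bases before the start, and a TATAAA match lies 39 bases before it. The stretches of Fhl2 and Klhl33 lie in introns of these genes, and each gene has a second start in the table, not shown. A CArG match was present in 1.62% of all 27025 promoters of this length, in 0.532% of called genes above 0 and in 6.67% of those below 0, which is 4 of 60 genes. MEF2 matches were present in 3.42% of all, 5.85% of the former and 10.0% of the latter. M-CAT matches were in 14.4%, 20.2% and 18.3%. These shares describe letters in a window and were not tested.

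Among called genes with a mean of at least 5 TPM, the tendon and matrix genes Tnmd, Comp and Col1a2 had the largest differences above 0. Of 15 tendon and myotendinous genes tested, 7 were called, all above 0 (1.91% of all genes tested), and 15 of 15 differences were positive, against 9639 of all 13401 genes. The median difference was 1.24, against 0.12 over all genes. In the soleus 11 of the 15 fell, where 7.73% of all genes did, and none rose, with a median effect of -1.07. In the diaphragm 3 rose and 2 fell, where 45.5% and 3.77% of all genes did, with a median of -0.09. Without the soleus library high in Myh4, 6 were called, and 6 in the split-matched fit. With a pseudocount of 0.1 in place of 1, 6 were called and Col22a1 was not (adjusted p = 0.076).

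Tnmd encodes tenomodulin, a membrane glycoprotein of tendon cells, and lies at chrX:133850980-133865577 (GRCm38, GENCODE M21). In non-cachectic soleus it was at 72.5, 51.7, 54.1, 60.2 and 67.4 TPM. In cachectic soleus it was at 4.43, 6.65, 2.54, 12.6 and 15.3 TPM, so the groups did not overlap. In diaphragm it was low in both groups, from 2.79 to 9.73 TPM (median 3.58) with the cachectic and from 2.99 to 8.97 TPM (median 6.29) with the non-cachectic melanoma. Soleus mean levels were 7.37-fold lower with the cachectic melanoma. The difference was 2.53 ± 0.39 (SE), adjusted p = 0.00051, from effects of -0.41 in diaphragm and -2.95 in soleus. It stayed called in all 15 other settings and with each of the 29 libraries left out.

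Comp, cartilage oligomeric matrix protein, had a similar pattern. Its non-cachectic soleus values were 64.1, 41.3, 67.6, 61.8 and 65.4 TPM, and its cachectic ones 11.3, 7.97, 5.05, 33.1 and 30.2 TPM. The 2 soleus groups did not overlap, whereas diaphragm values of 2.80 to 18.4 TPM (median 5.81) with and 2.57 to 7.75 TPM (median 4.16) without cachexia did. The difference was 2.46 ± 0.49, adjusted p = 0.0066. Within the mock diaphragm Comp also differed with the Pcna-ps2 split (adjusted p = 0.048), and in the split-matched fit the difference was 2.12, adjusted p = 0.021. With only the diaphragm libraries of matching column number it was 1.94 and missed the threshold (adjusted p = 0.057).

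The other called tendon genes were Cilp2, Mkx, Col22a1, Thbs4 and Dcn. Cilp2, a cartilage matrix protein, was between 9.53 and 19.1 TPM in non-cachectic and between 0.203 and 2.07 TPM in cachectic soleus, and at most 1.12 TPM in diaphragm. Its difference was 2.54 ± 0.26 (adjusted p = 1.4e-06). With a pseudocount of 0.1 Cilp2 also fell in the diaphragm, by 1.02 (adjusted p = 0.018), and the difference was 2.78 ± 0.60 (adjusted p = 0.013). Mkx, the tendon transcription factor Mohawk, fell from a mean of 3.18 to 1.03 TPM in soleus and was below 1 TPM in all diaphragm libraries. Mkx passed the filter on low values through the soleus alone and Cilp2 mainly so, and at these levels the pseudocount of 1 holds the diaphragm effect near 0, so their calls reflect the soleus effect. Dcn, which encodes the collagen-binding proteoglycan decorin, rose in the diaphragm (mean 614.3 to 855.5 TPM) and fell in the soleus (410.2 to 266.9 TPM), a difference of 1.19 ± 0.27, adjusted p = 0.017. Thbs4, thrombospondin 4, lost its call under median-ratio scaling (adjusted p = 0.078). Chad, Kera and Fmod fell in the soleus by 3.02, 3.37 and 2.09 on the log2 scale, but the difference between muscles missed the threshold (adjusted p = 0.088, 0.057 and 0.070). Scx, the tendon transcription factor scleraxis, had soleus means of 23.7 and 19.0 TPM with the cachectic and non-cachectic melanoma, and its soleus effect of 0.28 did not pass (adjusted p = 0.54). In these whole-muscle samples, fewer cells of a type and less RNA per cell cannot be told apart.

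Among 22 collagen chain genes 5 were called, all above 0 (1.91% of all genes tested), with a median difference of 0.29. These were the type I chains Col1a1 and Col1a2, the type XI chains Col11a1 and Col11a2, and Col12a1. Col11a1 was at most 0.759 TPM in diaphragm, so its call too reflects the soleus effect. In the soleus 8 of the 22 fell, where 7.73% of all genes did. In the diaphragm 6 fell and 1 rose, where 3.77% and 45.5% of all genes did. Without the soleus library high in Myh4, 3 were called, and with a pseudocount of 0.1 Col12a1 was not (adjusted p = 0.075). Col1a1 was at 164.1, 89.9, 108.6, 91.5 and 132.4 TPM in non-cachectic and at 14.1, 17.1, 15.0, 62.1 and 22.2 TPM in cachectic soleus. In diaphragm it ran from 13.9 to 82.96 TPM (median 42.8) with and from 39.3 to 83.5 TPM (median 63.7) without cachexia, with overlap. The difference was 1.80 ± 0.44 (adjusted p = 0.026) for Col1a1 and 1.96 ± 0.37 (adjusted p = 0.0041) for Col1a2. The type VI chains Col6a1 and Col6a2 fell in both muscles, by 0.71 and 0.88 in diaphragm and by 1.31 and 1.38 in soleus, and were not called for the difference.

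Of 21 collagen-processing and leucine-rich proteoglycan genes, Loxl3, a lysyl oxidase-like enzyme, was called above 0 (difference 0.76, adjusted p = 0.036), with a median of 0.50 for the list. Abi3bp, a secreted matrix protein, fell in soleus from 12.5 to 22.2 TPM down to 2.80 to 11.7 TPM, while diaphragm medians were 10.9 TPM with and 11.3 TPM without cachexia (difference 1.44 ± 0.31, adjusted p = 0.012). Summed over 5 fibroblast markers, the median level was 67.5 TPM (range 60.6 to 201.6) in cachectic and 146.2 TPM (103.8 to 157.4) in non-cachectic soleus. In diaphragm it was 259.2 TPM (134.5 to 371.9) with and 290.1 TPM (223.0 to 360.8) without cachexia. None of the 5 markers was at 0 in every library of a group, 0 of 5 were called for the difference, and their part in the matrix result was not tested.

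Of 28 growth-factor genes in the IGF, activin and BMP list 3 were called, all above 0 (1.91% of all genes tested). Of the 28 differences 20 were positive (median 0.34), a share near that of all genes (9639 of 13401). Without the soleus library high in Myh4, 2 were called. Igfbp5, an IGF-binding protein, was at 202.4, 140.0, 180.9, 199.8 and 158.1 TPM in non-cachectic and at 47.5, 49.2, 35.6, 84.7 and 69.5 TPM in cachectic soleus. In diaphragm it ranged from 186.8 to 573.7 TPM with and from 254.5 to 485.6 TPM without cachexia, and the difference was 1.51 ± 0.31, adjusted p = 0.0073. Igfbp6 fell in soleus from a mean of 65.6 to 38.1 TPM (difference 1.07 ± 0.28, adjusted p = 0.037). Nog differed by another route. This secreted BMP antagonist, noggin, rose in the diaphragm from 6.10 to 8.62 TPM up to 8.89 to 25.6 TPM with no overlap, whereas soleus values of 3.59 to 6.31 TPM with and 4.68 to 7.24 TPM without cachexia overlapped. Its difference was 1.17 ± 0.24, adjusted p = 0.0066.

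**Figure D2:**
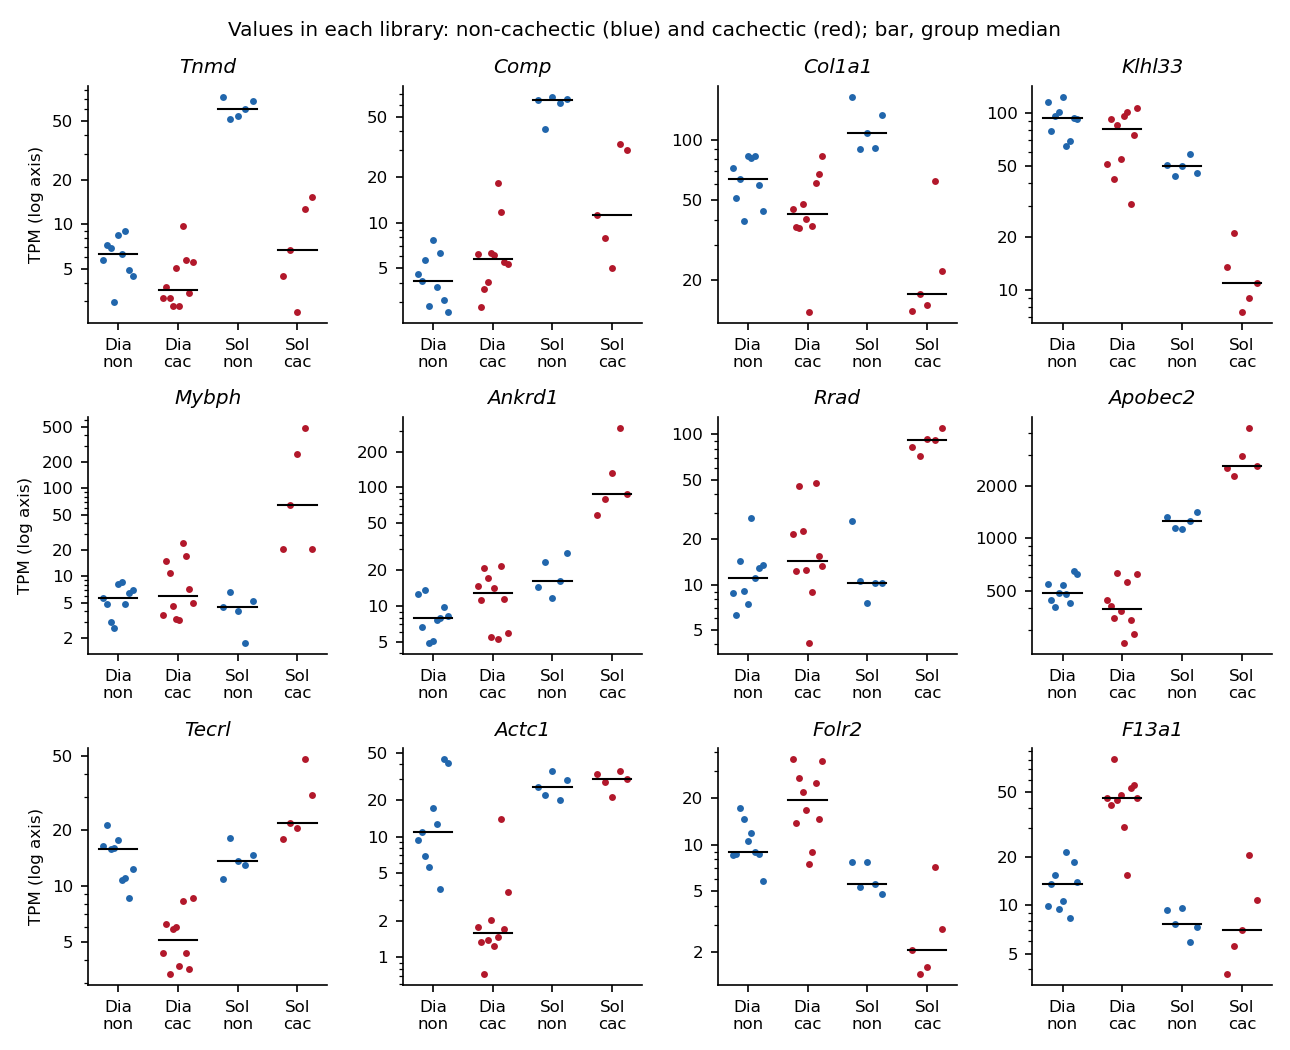
TPM on log axes in every library for 12 of the named genes, with non-cachectic libraries in blue, cachectic in red and the group median as a bar (diaphragm n = 9 and 10, soleus n = 5 and 5). Tnmd, Comp, Col1a1 and Klhl33 are lower in all cachectic than in all non-cachectic soleus libraries, and Mybph, Ankrd1, Rrad and Apobec2 are higher in all of them.

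Some genes of stressed and developing sarcomeres had called differences on the side below 0. Of 18 such genes 6 were called, all below 0 (0.619% of all genes tested), with a median difference of -0.75. In the soleus 12 rose and none fell, where 17.6% and 7.73% of all genes tested did. In the diaphragm 4 rose and 1 fell, where 45.5% and 3.77% of all genes tested did. Without the soleus library high in Myh4 3 were called, and 2 in the split-matched fit. The called genes were Mybph, Ankrd1, Actc1, Xirp2, Lmcd1 and Igfn1, of which Igfn1 lost its call under median-ratio scaling (adjusted p = 0.086) and with a pseudocount of 0.1 (adjusted p = 0.21). Igfn1 was at most 0.121 TPM in diaphragm and passed the filter on low values through the soleus alone, so its call reflects the soleus effect and the other 5 rest on levels in both muscles.

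Mybph encodes myosin-binding protein H of the thick filament. It was at 4.40, 6.64, 3.98, 1.72 and 5.25 TPM in non-cachectic soleus and at 20.1, 63.9, 242.9, 485.1 and 20.6 TPM in cachectic soleus. Every cachectic soleus library was above every non-cachectic one, and the cachectic libraries were widely spread. In diaphragm the ranges of 3.17 to 24.0 TPM (median 5.99) with and 2.56 to 8.65 TPM (median 5.63) without cachexia overlapped. The difference was -3.57 ± 0.79, adjusted p = 0.013. It missed the threshold with only the diaphragm libraries whose column numbers also occur in soleus (-3.58, adjusted p = 0.054) and with rFibcd1-treated in place of mock diaphragm (adjusted p = 0.070).

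Ankrd1, the stretch-responsive cardiac ankyrin repeat protein that binds titin, was at 14.4, 23.5, 11.7, 16.2 and 28.2 TPM in non-cachectic and at 59.0, 80.2, 133.2, 317.3 and 87.1 TPM in cachectic soleus. Diaphragm values were 4.87 to 13.8 TPM without and 5.25 to 21.8 TPM with cachexia, and the difference was -2.12 ± 0.49, adjusted p = 0.017. In a fit that also held tibialis anterior libraries it missed the threshold (adjusted p = 0.053). It also missed it with only the diaphragm libraries of matching column number (-1.94, adjusted p = 0.080). With rFibcd1-treated in place of mock diaphragm the Ankrd1 difference was -0.92 (adjusted p = 0.93). Xirp2, an actin-binding Xin-repeat protein, rose in soleus from a mean of 523.3 to 1339 TPM and stood at 324.1 TPM without and 306.3 TPM with cachexia in diaphragm (difference -1.27 ± 0.32, adjusted p = 0.029). Csrp3 (muscle LIM protein) and Xirp1 had soleus effects of 1.94 and 1.75. Their differences missed the threshold as deposited (adjusted p = 0.077 and 0.053) and passed it after median-ratio scaling (0.043 and 0.027). Ankrd2 rose in both muscles, by 2.03 in diaphragm and 1.74 in soleus, with a difference of 0.29 that did not pass (adjusted p = 0.86).

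**Figure D3:**
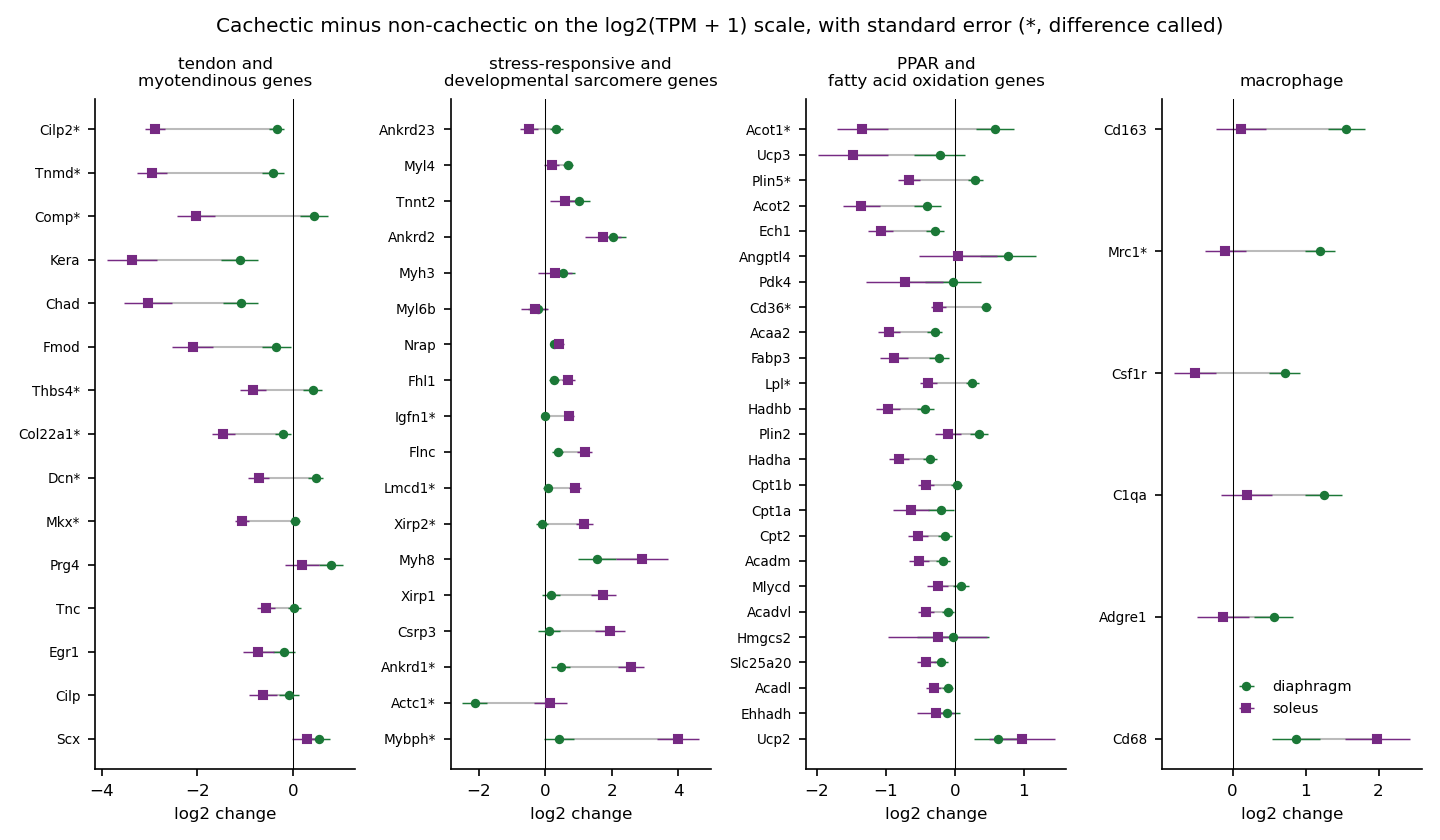
Melanoma effect of each member of 4 gene lists in diaphragm (green circles) and soleus (purple squares) on the log2(TPM + 1) scale, with standard error bars and an asterisk where the difference was called. Soleus effects lie left of diaphragm effects for 15 of 15 tendon genes and 24 of 25 fatty acid genes.

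Actc1, Tecrl, Fhl2, Dusp18 and Hbegf fell in the diaphragm. Actc1, cardiac alpha actin, was at 3.67 to 44.4 TPM (median 11.02) in non-cachectic and 0.72 to 14.1 TPM (median 1.59) in cachectic diaphragm. In soleus it was at 25.9, 22.2, 35.1, 20.1 and 29.8 TPM without and 33.0, 28.3, 21.5, 35.3 and 29.9 TPM with cachexia. The difference was -2.28 ± 0.62, adjusted p = 0.046, and it was called in 8 of the 29 fits that left out 1 library (largest adjusted p = 0.089). Its split-matched difference was -1.67 and missed the threshold (adjusted p = 0.089).

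Tecrl encodes an enoyl-reductase-like protein of the endoplasmic reticulum in heart and skeletal muscle, at chr5:83278145-83355195. Diaphragm values were 8.57 to 21.3 TPM (median 15.9) without and 3.33 to 8.56 TPM (median 5.09) with cachexia and did not overlap. Soleus values ran the other way, at 10.9, 18.0, 13.6, 12.9 and 14.7 TPM without and 17.8, 21.95, 20.5, 48.5 and 31.1 TPM with cachexia, with 1 non-cachectic library above the lowest cachectic one. The difference was -2.14 ± 0.31 (adjusted p = 0.00021), from a fall of 1.28 in diaphragm (adjusted p = 8.6e-06) and a rise of 0.87 in soleus (adjusted p = 0.012). Within the mock diaphragm Tecrl was also lower in libraries high for Pcna-ps2 (by 0.60, adjusted p = 0.049), and the split-matched difference was -2.40 (adjusted p = 6.2e-05).

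Fhl2, a LIM-domain adaptor of the sarcomere, fell in diaphragm from a mean of 19.1 to 9.71 TPM (adjusted p = 0.00072). Its soleus effect of 0.80 did not pass (adjusted p = 0.055), and the difference was -1.82 ± 0.38, adjusted p = 0.0091. Hbegf, a ligand of the EGF receptor, fell in diaphragm from 6.52 ± 2.53 (SD, n = 9) to 3.71 ± 0.65 TPM (n = 10) and rose in soleus from 6.25 ± 1.10 to 11.4 ± 2.31 TPM (n = 5 each). Its difference was -1.39 ± 0.24, adjusted p = 0.0013. The dual-specificity phosphatase Dusp18 fell in diaphragm by 1.18, with a soleus effect of 0.25 (adjusted p = 0.60). Its difference was -1.44 ± 0.38, adjusted p = 0.037, and it was called in 18 of the 29 leave-out fits. Its split-matched difference was -1.48 and missed the threshold (adjusted p = 0.064).

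Apobec2 rose in the soleus only by the single-muscle calls, and the difference itself was called. Apobec2, a muscle-restricted member of the cytidine deaminase family, was at 1319, 1143, 1135, 1252 and 1418 TPM in non-cachectic and at 2523, 2272, 2967, 4279 and 2573 TPM in cachectic soleus. Diaphragm values were 404.7 to 648.5 TPM without and 251.5 to 636.0 TPM with cachexia, and the difference was -1.50 ± 0.26 (adjusted p = 0.0013). It was called in all 15 other settings and all 29 leave-out fits.

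Rrad, a small GTPase that restrains calcium channels, was at 26.7, 10.5, 7.55, 10.2 and 10.2 TPM in non-cachectic and at 82.8, 72.2, 92.7, 91.2 and 110.7 TPM in cachectic soleus. In diaphragm it was at 6.25 to 27.7 TPM without and 4.07 to 47.7 TPM with cachexia, and the difference was -2.31 ± 0.54, adjusted p = 0.020. Its split-matched difference was -1.94 and missed the threshold (adjusted p = 0.061). Slc22a2, an organic cation transporter, rose in both muscles, by 1.11 in diaphragm and 3.66 in soleus (difference -2.55 ± 0.62, adjusted p = 0.026). Its median in non-cachectic diaphragm was 0.233 TPM, and the call was lost with a pseudocount of 0.1 (-2.15, adjusted p = 0.30) and without mitochondrial transcripts (adjusted p = 0.072). It differed with the Pcna-ps2 split in the mock diaphragm (adjusted p = 0.0053), and its split-matched difference was -1.92 and missed the threshold (adjusted p = 0.066). Hist2h2aa2, a histone gene with near-identical copies among which reads may be divided, had a difference of -3.63 ± 0.94, adjusted p = 0.034. Its soleus values were 0 to 20.8 TPM without and 32.8 to 58.9 TPM with cachexia, and its split-matched difference missed the threshold (adjusted p = 0.094). Of 18 histone genes tested, Hist2h2aa2 was called below 0 and Hist2h3c1 above 0.

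Fatty acid genes lay on the side above 0. Of 25 genes of PPAR signaling and fatty acid oxidation, 4 were called, all above 0, and 24 of 25 differences were positive (median 0.45). Over all genes 9639 of 13401 differences were positive and 1.91% were called above 0. In the soleus 16 fell and none rose, where 7.73% and 17.6% of all genes tested did. In the diaphragm 4 rose and 3 fell, where 45.5% and 3.77% of all genes tested did. Acot1, an acyl-CoA thioesterase, was at 14.7, 14.4, 18.7, 11.7 and 12.8 TPM in non-cachectic and at 3.88, 7.22, 5.05, 3.55 and 6.21 TPM in cachectic soleus. Diaphragm values overlapped, at 5.03 to 14.4 TPM (median 9.88) without and 5.85 to 49.8 TPM (median 12.7) with cachexia. The difference was 1.92 ± 0.46, adjusted p = 0.023. Acot1 also differed with the Pcna-ps2 split (adjusted p = 0.035), and its split-matched difference was 1.48, adjusted p = 0.037. After quantile normalization it missed the threshold (1.69, adjusted p = 0.095).

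Cd36, the fatty acid transporter, rose in diaphragm from 474.7 ± 33.0 (SD, n = 9) to 653.8 ± 91.6 TPM (n = 10). Its soleus values of 536.6 ± 41.5 TPM without and 456.9 ± 61.4 TPM with cachexia (n = 5 each) overlapped, and the soleus effect of -0.24 did not pass (adjusted p = 0.092). The difference was 0.69 ± 0.13, adjusted p = 0.0032. Plin5, a lipid droplet protein, rose in diaphragm (96.6 to 120.3 TPM) and fell in soleus (57.1 to 35.8 TPM), a difference of 0.96 ± 0.20, adjusted p = 0.0075. With a pseudocount of 0.1 the Plin5 diaphragm effect was 0.30 (limma adjusted p = 0.034). The median diaphragm effect over all genes was 0.20 as deposited, with a pseudocount of 1. Lpl, lipoprotein lipase, had a difference of 0.64 that was lost under median-ratio scaling (adjusted p = 0.13). Hadha and Hadhb, the subunits of the trifunctional protein of beta-oxidation, fell in both muscles, by 0.36 and 0.43 in diaphragm and by 0.81 and 0.97 in soleus, without a called difference. After median-ratio scaling the median effect of the list was -0.34 in diaphragm and -0.60 in soleus. Summed adipocyte markers had wide ranges, from 192.9 to 2691 TPM (median 841.9) and 129.8 to 1258 TPM (299.1) in cachectic and non-cachectic diaphragm, and from 157.3 to 4825 TPM (800.7) and 328.4 to 1079 TPM (683.6) in soleus. Of the 6 adipocyte markers 4 rose in the diaphragm and 0 in the soleus, where 45.5% and 17.6% of all genes tested rose. Of these markers 0 were called for the difference, and their part in the fatty acid result was not tested.

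Klhl33 and Dupd1 are expressed mainly in skeletal muscle and fell in the soleus. Klhl33, a kelch-like protein, was at 50.7, 44.2, 50.2, 58.8 and 45.9 TPM in non-cachectic and at 13.5, 21.0, 7.48, 9.02 and 10.9 TPM in cachectic soleus, while diaphragm values were 65.0 to 123.7 TPM without and 30.6 to 106.3 TPM with cachexia. Its difference was 1.60 ± 0.34, adjusted p = 0.011. Dupd1, a dual-specificity phosphatase, was at 92.9, 102.8, 101.3, 174.1 and 107.8 TPM in non-cachectic and 35.8, 39.6, 19.8, 17.9 and 58.2 TPM in cachectic soleus, and its diaphragm values were 19.95 to 30.6 TPM without and 15.8 to 32.3 TPM with cachexia. Its difference was 1.63 ± 0.29 (adjusted p = 0.0017), called in all 15 other settings and all 29 leave-out fits. The promoter of Dupd1 holds a MEF2 match 35 bases before the start.

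Summed macrophage markers had a higher median with cachexia in both muscles. Of 6 macrophage markers 5 rose in the diaphragm and 1, Cd68, rose in the soleus, where 45.5% and 17.6% of all genes tested rose. Only Mrc1 was called for the difference (1.29 ± 0.35, adjusted p = 0.043), and the median difference was 1.14. Without the soleus library high in Myh4, or without the non-cachectic diaphragm library high in liver markers, 0 were called, and 2 were called in the split-matched fit. With a pseudocount of 0.1 Mrc1 missed the threshold (adjusted p = 0.052). Mrc1, the mannose receptor of resident macrophages, was at 6.85 to 10.9 TPM (median 8.64) in non-cachectic and 8.69 to 38.6 TPM (median 21.5) in cachectic diaphragm. In soleus it was at 5.36, 4.73, 4.23, 2.95 and 3.63 TPM without and 2.08, 2.17, 2.66, 9.03 and 5.91 TPM with cachexia. F13a1 and Folr2 are not among the 6 markers and were named for the size of their difference. F13a1, the A chain of coagulation factor XIII made by such macrophages, rose 3.42-fold in mean diaphragm level, from 8.40 to 21.4 TPM up to 15.4 to 80.8 TPM. Soleus values were 9.37, 7.69, 9.62, 5.92 and 7.31 TPM without and 3.74, 5.63, 7.07, 20.4 and 10.8 TPM with cachexia. The difference for F13a1 was 1.62 ± 0.42, adjusted p = 0.034. It also differed with the Pcna-ps2 split (adjusted p = 0.011), and its split-matched difference was 1.99, adjusted p = 0.0047.

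Folr2, the folate receptor of tissue-resident macrophages, rose in diaphragm (5.83 to 17.3 TPM, then 7.49 to 36.0 TPM) and fell in soleus. Its soleus values were 7.66, 5.33, 7.71, 5.55 and 4.75 TPM without and 2.08, 1.44, 1.62, 7.12 and 2.86 TPM with cachexia, where 1 cachectic library lay among the non-cachectic ones. The difference was 1.78 ± 0.43, adjusted p = 0.026. Cd68, a lysosomal protein of macrophages, went the other way, with an uncalled difference of -1.12 (adjusted p = 0.30) and cachectic soleus values of 9.54 to 80.8 TPM. The macrophage markers summed to 120.3 to 430.9 TPM (median 311.5) in cachectic and 73.4 to 169.1 TPM (median 132.3) in non-cachectic diaphragm. In soleus they summed to 32.5 to 155.5 TPM (median 111.0) and 43.0 to 55.8 TPM (median 48.8). Tmem119, a membrane protein known from bone-forming cells and microglia, rose in diaphragm from a mean of 14.6 to 27.6 TPM, with a soleus effect of -0.70 that did not pass (adjusted p = 0.12). Its difference was 1.52 ± 0.40, adjusted p = 0.038, and it was called in 14 of the 29 leave-out fits.

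Glucocorticoid-response and interleukin-6 response genes held no called difference between the muscles, although many rose in each. Of 18 glucocorticoid-response genes, 14 rose in diaphragm and 10 in soleus, with median effects of 0.85 and 0.67. Of all genes tested 45.5% rose in diaphragm and 17.6% in soleus, and the same shares stand beside the counts for the acute-phase, metallothionein, proteasome and ribosomal lists. None was called for the difference by limma as deposited or after scaling, and 0 had an unadjusted p under 0.05. Of all 13401 genes tested, 2277 had one. Fkbp5, the glucocorticoid-induced immunophilin, rose 8.69-fold in mean level in diaphragm (5.00 to 14.0 TPM, then 28.8 to 195.1 TPM) and 4.19-fold in soleus (9.42 to 20.1 TPM, then 22.1 to 120.1 TPM). The difference of 0.96 did not pass (adjusted p = 0.36).

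Of 19 acute-phase and interleukin-6 response genes, 12 rose in diaphragm and 9 in soleus, with 0 called for the difference as deposited or scaled and 1 at an unadjusted p under 0.05. Serpina3n, a secreted protease inhibitor, rose 32.3-fold in mean diaphragm and 23.7-fold in mean soleus level. Hp, the hemoglobin-binding plasma protein haptoglobin, had a mean 5.94-fold higher in diaphragm and 36.1-fold higher in soleus. Its non-cachectic diaphragm values ran from 6.22 to 419.1 TPM (median 14.0), and its difference of -0.83 ± 1.17 did not pass (adjusted p = 0.77). Socs3, the feedback inhibitor of cytokine signaling, rose by 2.45 and 2.62 (difference -0.17, adjusted p = 0.86). Of 8 metallothioneins and zinc transporters 5 rose in each muscle and 0 were called (0 also after scaling and at an unadjusted p under 0.05). Mt2 rose by 4.22 in diaphragm and 4.76 in soleus (difference -0.53, adjusted p = 0.83). A p above the threshold does not show that the responses were equal, and the SE of the difference was 0.53 for Fkbp5 and 0.98 for Mt2.

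Atrophy genes of the ubiquitin system showed 0 called differences among 16 as deposited, with 3 at an unadjusted p under 0.05. Of all 13401 genes tested, 2277 were under it. After median-ratio scaling Fbxo40 and Trim54 were called below 0. In diaphragm 8 of the 16 rose and in soleus 5, where 45.5% and 17.6% of all genes tested rose. Trim63 (MuRF1) ranged from 92.8 to 1481 TPM in cachectic and 83.4 to 118.1 TPM in non-cachectic diaphragm, and from 146.9 to 598.2 and 107.9 to 128.7 TPM in soleus. Fbxo32 (atrogin-1) ranged from 59.5 to 876.7 TPM in cachectic against 91.3 to 137.1 TPM in non-cachectic diaphragm, and its difference of 0.82 did not pass (adjusted p = 0.44). Of 38 proteasome subunit genes 28 rose in diaphragm and 30 in soleus, with 0 called for the difference as deposited, 3 at an unadjusted p under 0.05 and 4 called below 0 after scaling. Of 82 cytosolic ribosomal protein genes 78 rose in diaphragm and 76 in soleus, where 2 fell, with 0 called as deposited or scaled and 2 at an unadjusted p under 0.05.

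The remaining lists held few calls. Of 37 nuclear oxidative phosphorylation genes Atp5o was called above 0 (lost after scaling, adjusted p = 0.40). Their median effect was 0.04 in diaphragm and -0.14 in soleus as deposited and -0.20 and -0.22 after scaling, so the diaphragm direction flips with the scaling. There were 0 calls as deposited or scaled among 10 slow-fiber, 14 fast-fiber, 18 clock, 21 interferon-response, 14 integrated stress response and 15 denervation and neuromuscular junction genes. At an unadjusted p under 0.05 these lists held 0, 1, 0, 0, 3 and 7 genes, against 2277 of all 13401 genes tested. Myog, the myogenic factor induced by denervation, had means of 51.8 and 19.6 TPM in cachectic and non-cachectic soleus, and its difference of -0.92 did not pass (adjusted p = 0.14). Hoxc11, a hindlimb gene at 0 TPM in all diaphragm libraries, rose in soleus from 6.27 to 9.77 TPM up to 9.95 to 15.1 TPM.

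**Figure D4:**
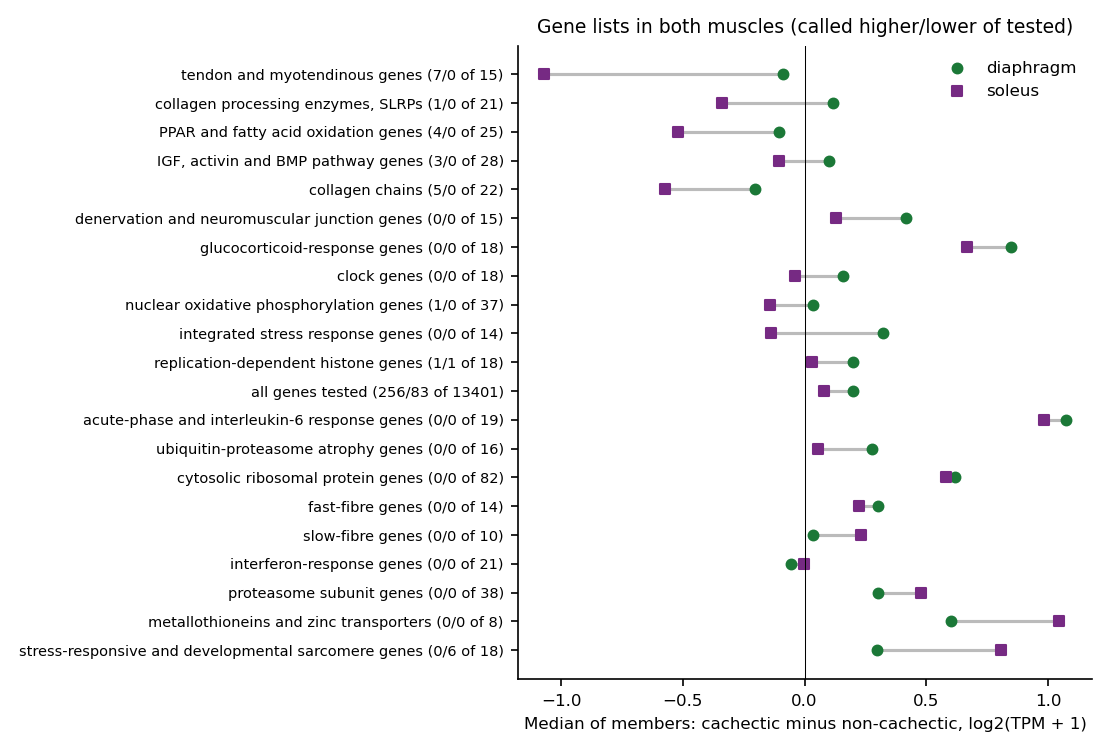
Median melanoma effect of each gene list on the log2(TPM + 1) scale in diaphragm (green circles) and soleus (purple squares), ordered by the median difference, with the number of members called above and below 0 in brackets. Tendon genes lie at the top (-0.09 and -1.07) and stress-responsive sarcomere genes at the bottom (0.30 and 0.81).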

How the data were processed

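RNA-seq libraries of 19 mock-treated diaphragms and 10 soleus muscles were analysed. Per the study's methods, the authors trimmed and filtered paired reads, aligned them to GRCm38 (mm10) with CLC Genomics Workbench and took TPM from its RNA-Seq tool. The annotation is not given in the sources used here, and kit and instrument differ between labels and methods. The deposited table holds TPM for 47643 gene symbols. Each library sums to 1000000, so depth is unknown. All its columns matched a group by name.

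Genes with at least 1 TPM in at least 5 of the 29 libraries were kept. limma 3.58.1 (R 4.3.3) fitted 1 mean per group to log2(TPM + 1) with a trended prior. Tests were two-sided, with Benjamini-Hochberg adjustment over all 13401 genes, and were tested on simulated data. The labels do not say whether samples were separate animals, so p-values measure the spread between samples. Named genes were the 12 highest and 12 lowest differences among called genes with a mean of at least 5 TPM over group means, and called or defining members of 20 gene lists and 12 marker lists. The result of 1 named gene is not reported here. The members and lists were chosen with earlier results of these data known. A gene's fold change on the log2(TPM + 1) scale understates changes at low levels. Alternatives were other pseudocounts, filters, scalings, weights, terms for the Pcna-ps2 split and the column number, and leaving out each library.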

Additional observations from a re-analysis of the deposited data

Results flagged for a closer look

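The melanoma effect differed between the muscles by the test of the difference itself for 23 named genes. All were named from genes already called by this test, so their passing repeats the choice and is not a further test. On the log2(TPM + 1) scale the difference, diaphragm minus soleus, was below 0 for Hist2h2aa2 (-3.63), Mybph (-3.57), Slc22a2 (-2.55), Rrad (-2.31), Actc1 (-2.28), Tecrl (-2.14), Ankrd1 (-2.12), Fhl2 (-1.82), Apobec2 (-1.50), Dusp18 (-1.44) and Hbegf (-1.39). It was above 0 for Tnmd (2.53), Comp (2.46), Col1a2 (1.96), Acot1 (1.92), Col1a1 (1.80), Folr2 (1.78), Dupd1 (1.63), F13a1 (1.62), Klhl33 (1.60), Tmem119 (1.52), Igfbp5 (1.51) and Abi3bp (1.44).

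In 6 of 96 groups, 4 for each of the 24 named genes, 1 library stood apart from the others of its group, where chance gives about 1 in 20. Rrad was at 26.7 TPM in 1 non-cachectic soleus library and at most 10.5 TPM in the others, and Dupd1 was at 174.1 TPM in 1 of them against at most 107.8 TPM. Comp was at 41.3 TPM in 1 non-cachectic soleus library, below the next value of 61.8 TPM. Actc1 was at 14.1 TPM in 1 cachectic diaphragm library, where the next was 3.51 TPM. Col1a2 at 20.4 TPM and Col1a1 at 13.9 TPM were each low in 1 cachectic diaphragm library, with next values of 38.6 and 36.5 TPM.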

How the results depend on the processing

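The count of 339 called differences was 207 with a mean of at least 5 TPM required, 216 after quantile normalization (35.2% above 0), 676 with weights per library and 202 (84 above 0) with rFibcd1-treated in place of mock diaphragm, the last chosen after seeing the data, as were both fits on matched numbers. Diaphragm calls moved from 6600 to 3534 (median-ratio), 3812 (quantile), 3467 (without mitochondrial transcripts) and 2366 (Pcna-ps2 split as a term). Soleus calls moved from 3391 to 470 with that term. With 1 library left out, 190 to 498 differences, 5779 to 7421 diaphragm and 2291 to 3788 soleus genes were called. The count fell by over 1.5 times without cachectic soleus library 7 (210) or non-cachectic soleus library 63 (190), 64 (222) or 65 (198). The cause of these moves was not tested beyond what each setting leaves out. None of the 24 named genes reversed. With rFibcd1-treated diaphragm 17 of them lost their call, and 8 on matched numbers, namely Slc22a2, Tmem119, Hist2h2aa2, Ankrd1, Rrad, Mybph, Comp and Abi3bp. Without a filter Actc1 (adjusted p = 0.066), Dusp18 (0.051) and Tmem119 (0.054) lost it, after quantile normalization Tmem119 (0.074), with weights per library Hist2h2aa2 (0.083) and with the Pcna-ps2 split as a term Actc1 (0.088) and Hist2h2aa2 (0.066). Across the other settings 315 of their values stayed called and 45 did not, and with 1 library left out 624 and 72.

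Columns of the 2 muscles share numbers. Residual correlations of the 10 pairs ran from 0.0087 to 0.451, 8 were over 0.1 and 7 soleus libraries matched their own number best. Because 2 pairs were not over 0.1 and the labels name no shared animal, litter or day, the numbers were not taken as pairing. With the number as a replicate block 1163 differences were called (consensus correlation 0.394), and 823 in a blocked fit of the matched numbers, where the fit without the block called 323.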
